A study of Mus musculus with 9 samples.

Results

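Collagen expression was compared between PDGFRα-driven mouse glioblastoma (GBM) grown at a high or a low dose of ligand and proliferative lesions of oligodendrocyte precursor cells (OPCs). The members were all genes whose symbol is that of a collagen chain (Col, a type number, a and a chain number) and which had an array probe set naming them alone, 44 of the 22180 genes measured. They were split into 11 fibrillar, 6 basement membrane and 27 other collagens. RNA came from flash-frozen tissue in 3 groups of 3 arrays, which the design text calls biological replicates. No source says that each was a mouse of its own, and a p value therefore covers only the spread among these arrays, which may not be that among mice. Where a single tumor or lesion is named below, its array is meant.

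The P3 high DOX tumors came from mice of genotype hPDGF-A;hPDGFRα;p53lox given 600 mg/kg doxycycline (DOX), and the P3 low DOX tumors from the same genotype given 25 mg/kg. In P3 mice a lentivirus carrying a DOX-inducible human PDGF-A and a constitutive Cre was injected into the striatum of adult animals. Cre deleted p53 and released human PDGFRα, driven by a CAG promoter, from a stop cassette, so every P3 tumor carried both changes and tumor initiation was oligoclonal. The OPC lesions came from mice given 600 mg/kg and labelled hPDGFRα;p53. The paper describes them instead as p53 2lox mice injected with the PDGF-A and Cre virus, as endogenous OPCs with a wild type p53 expression, and as not tumors. The paper also gives a slightly higher figure for the high dose than the labels, which are used here. The conditional PDGFRα allele was placed in the Col1a1 locus, itself a member of the family described here. Whether this changed the Col1a1 signal was not tested.

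Collagens are trimers of α chains wound into a triple helix. Fibrillar collagens assemble into the banded fibrils of connective tissue, and in brain are largely made by fibroblasts of the meninges and of the larger vessels. Type IV chains form the sheet of the basement membrane around vessels and under the pia. The other collagens include beaded filaments (type VI), fibril-associated collagens with interrupted helices (FACIT), short-chain networks, the multiplexins of vessel basement membranes and membrane-spanning chains. Members share position as well as sequence. In the RefSeq gene order, 8 pairs were direct neighbours among protein-coding genes. Among them were Col3a1 and Col5a2, Col6a1 and Col6a2, and the 3 type IV pairs Col4a1 and Col4a2, Col4a3 and Col4a4, and Col4a5 and Col4a6.

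The upstream sequences below are shown for the contrast in values of their genes. Col1a2, Col3a1 and Col7a1 had their highest value by far in 1 tumor. Col6a1 was high in P3 low DOX replicates 1 and 3, and Col24a1 was nearly flat. The sequences were chosen after these values were seen. Each is the 250 bases before a RefSeq start (GRCm38.p6, printed 5′ to 3′ along the gene), at chr6:4505368-4505617 (plus strand), chr1:45311288-45311537 (plus), chr9:108953336-108953585 (plus), chr10:76726045-76726294 (minus) and chr3:145292222-145292471 (plus). Capitals mark the letters CCAAT of the CCAAT box, the letters TATAAA of a TATA-type box and the letters GGGCGG of a GC box, each on either strand.
Col1a2: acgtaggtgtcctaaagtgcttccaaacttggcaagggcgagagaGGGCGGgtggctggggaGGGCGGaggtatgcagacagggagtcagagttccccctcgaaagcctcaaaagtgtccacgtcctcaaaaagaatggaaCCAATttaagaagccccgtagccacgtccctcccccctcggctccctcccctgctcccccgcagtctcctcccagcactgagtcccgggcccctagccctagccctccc
Col3a1: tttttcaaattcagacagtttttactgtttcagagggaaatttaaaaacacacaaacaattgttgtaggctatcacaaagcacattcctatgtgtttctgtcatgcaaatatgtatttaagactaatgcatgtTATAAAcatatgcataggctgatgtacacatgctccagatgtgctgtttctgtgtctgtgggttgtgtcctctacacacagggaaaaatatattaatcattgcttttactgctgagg
Col7a1: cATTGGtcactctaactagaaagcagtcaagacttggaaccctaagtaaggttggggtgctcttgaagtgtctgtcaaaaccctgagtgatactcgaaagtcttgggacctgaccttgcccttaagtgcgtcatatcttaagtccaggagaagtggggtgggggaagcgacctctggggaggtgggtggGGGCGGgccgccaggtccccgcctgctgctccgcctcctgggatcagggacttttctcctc
Col6a1: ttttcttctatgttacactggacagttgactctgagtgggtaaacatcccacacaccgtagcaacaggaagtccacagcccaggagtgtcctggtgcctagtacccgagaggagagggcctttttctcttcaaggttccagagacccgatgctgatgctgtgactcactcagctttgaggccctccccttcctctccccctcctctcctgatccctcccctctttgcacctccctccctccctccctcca
Col24a1: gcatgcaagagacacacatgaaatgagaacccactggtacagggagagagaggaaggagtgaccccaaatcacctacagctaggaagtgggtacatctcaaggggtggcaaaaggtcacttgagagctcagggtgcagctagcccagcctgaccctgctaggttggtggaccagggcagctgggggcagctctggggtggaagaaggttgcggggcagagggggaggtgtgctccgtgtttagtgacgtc
Col1a2 held 1 CCAAT and 2 GGGCGG, Col3a1 held 1 TATAAA, Col7a1 held 1 CCAAT (on the reverse strand) and 1 GGGCGG, and Col6a1 and Col24a1 held none of these letters. The 3 letter strings do not overlap one another in these windows. Over the 38 upstream windows of the 35 members in the table, CCAAT was in 34.2% against 33.8% of all 32851 windows, TATAAA in 13.2% against 12.4% and GGGCGG in 57.9% against 32.7%. These are matches of letters and say nothing of a factor's binding.

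Array medians lay between 4.55 and 4.83 (log2), and arrays correlated with r between 0.90 and 0.99 over genes. The number of arrays limits the precision. All 8 OPC markers were above background in every group, with list means between 9.004 and 10.64. The 7 neuron markers were also above background in every group, with list means of 6.498 to 10.72 in P3 high DOX, 5.36 to 6.46 in P3 low DOX and 6.02 to 10.65 in OPC lesions, so every group is bulk tissue. The choroid plexus list averaged 7.88 on P3 high DOX replicate 2 and 4.14 to 4.38 on the other 8 arrays. P3 low DOX replicate 3 had the highest list mean of fibroblast and meningeal markers (7.14, against 5.20 to 6.14). It also had that of monocyte-derived macrophage markers (7.001, against 4.49 to 6.01). Of these 7 markers, 3 were highest there, against 13.7% of all genes, and the others were highest elsewhere. Background is the level under which 95% of 1390 olfactory and vomeronasal receptor genes lay, 4.33 in P3 high DOX, 4.40 in P3 low DOX and 4.28 in OPC lesions. By this measure 37 collagens were above background in all groups, 2 (Col4a3 and Col6a5) in none and 5 in some.

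Single arrays stood out in collagen expression. P3 low DOX replicate 3 held the highest of the 9 values for 25 of the 44 collagens, against 13.7% of all genes. For 10 of them (Col1a1, Col1a2, Col3a1, Col5a1, Col5a2, Col6a3, Col7a1, Col8a1, Col12a1 and Col14a1) it led the next array by over 1 log2 unit, against 1.02% of all genes. P3 low DOX replicate 2 held the highest value of 8 others, against 11.4% of all genes. The lowest value of 29 collagens was in 1 of the arrays P3 high DOX 1, P3 high DOX 2 and OPC lesion 1, against 37.2% of all genes. Relative to each gene's OPC lesion mean, the median fibrillar collagen stood at -0.50, -0.36 and 0.34 log2 in P3 high DOX, 0.22, 0.42 and 1.58 in P3 low DOX and -0.57, 0.29 and 0.09 in OPC lesions (replicates 1 to 3). The median basement membrane collagen stood at -0.56, -0.37 and 0.11 in P3 high DOX, 0.22, 0.16 and 1.27 in P3 low DOX and -0.62, 0.51 and 0.09 in OPC lesions. The median of the other collagens ranged less, with -0.11, -0.05 and 0.08 in P3 high DOX, 0.06, 0.0044 and 0.39 in P3 low DOX and -0.15, 0.10 and 0.02 in OPC lesions. In each class, P3 low DOX replicate 3 was the highest array. The groups overlapped in the fibrillar and other classes. In the basement membrane class every low DOX tumor was above every high DOX tumor, but narrowly, and the OPC lesions overlapped both. There P3 low DOX replicate 2 stood at 0.16 and P3 high DOX replicate 3 at 0.11. Centring each array on its median shifted the median of all genes between the doses by 0.11. This class median also includes Col4a3, which was below background in every group. In bulk tissue, fewer cells of a type and less RNA per cell cannot be told apart.

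**Figure D1:**
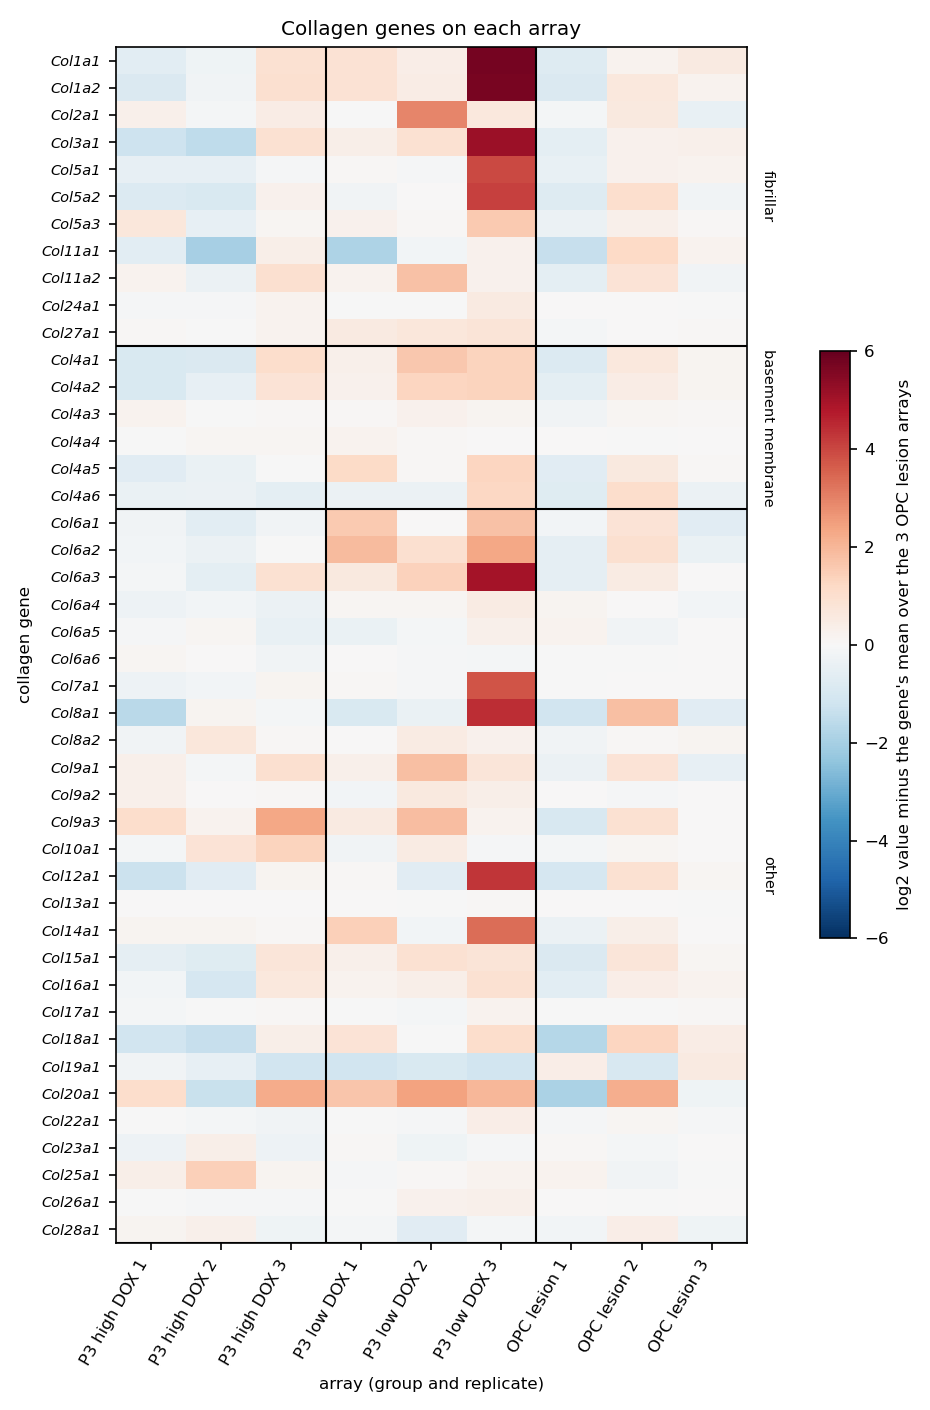
Each row is a collagen gene and each column an array (P3 high DOX, P3 low DOX, OPC lesion), with colour for the log2 value minus the gene's mean over the 3 OPC lesion arrays. P3 low DOX replicate 3 is the darkest column, and holds the highest value for 25 of the 44 genes.

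P3 high DOX and P3 low DOX tumors were compared to set the doses against each other within one genotype. In the paper, low DOX mice survived longer and only part of them died of brain tumors. Phospho-PDGFRα did not differ significantly between the doses there. Ligand dose and time to disease can therefore not be told apart here. The collagens were lower at high DOX in 36 of 44 cases, against 50% of all genes, with a median difference of -0.56 on the log2 scale against -0.0002 for all genes. The median was -0.97 for fibrillar collagens (11 of 11 below 0), -0.89 for basement membrane collagens (6 of 6) and -0.23 for the others (19 of 27). No collagen passed limma's test with Benjamini-Hochberg adjustment over all genes, and nor did any other gene (0%), and the smallest adjusted p of a collagen was 0.376. At an unadjusted p under 0.05, 5 collagens were lower (Col27a1, Col6a2, Col6a4, Col4a5 and Col6a1) against 4.89% of all genes, and 0 were higher against 5.25%. The methods' t-test gave 4 at that level and 0 after adjustment. The groups did not overlap for 7 lower collagens (those 5, Col4a6 and Col26a1), against 7.76% of all genes, and for 0 higher ones, against 8.23%. Of these, Col4a6 and Col6a4 were not above background in P3 high DOX. Col4a6 parted only narrowly, with 4.33 in P3 high DOX replicate 2 and 4.34 in P3 low DOX replicates 1 and 2.

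Without P3 low DOX replicate 3 the median difference was -0.22 for all collagens (32 below 0), -0.51 for fibrillar (9 of 11), -0.52 for basement membrane (6 of 6) and -0.09 for the other collagens (17 of 27). Without P3 high DOX replicate 2 it was -0.36 for all collagens, with 36 below 0. When each array was centred on its own median, the median of all genes shifted by 0.11, and 4 of the 6 basement membrane and 31 of the 44 collagens were still below 0.

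**Figure D2:**
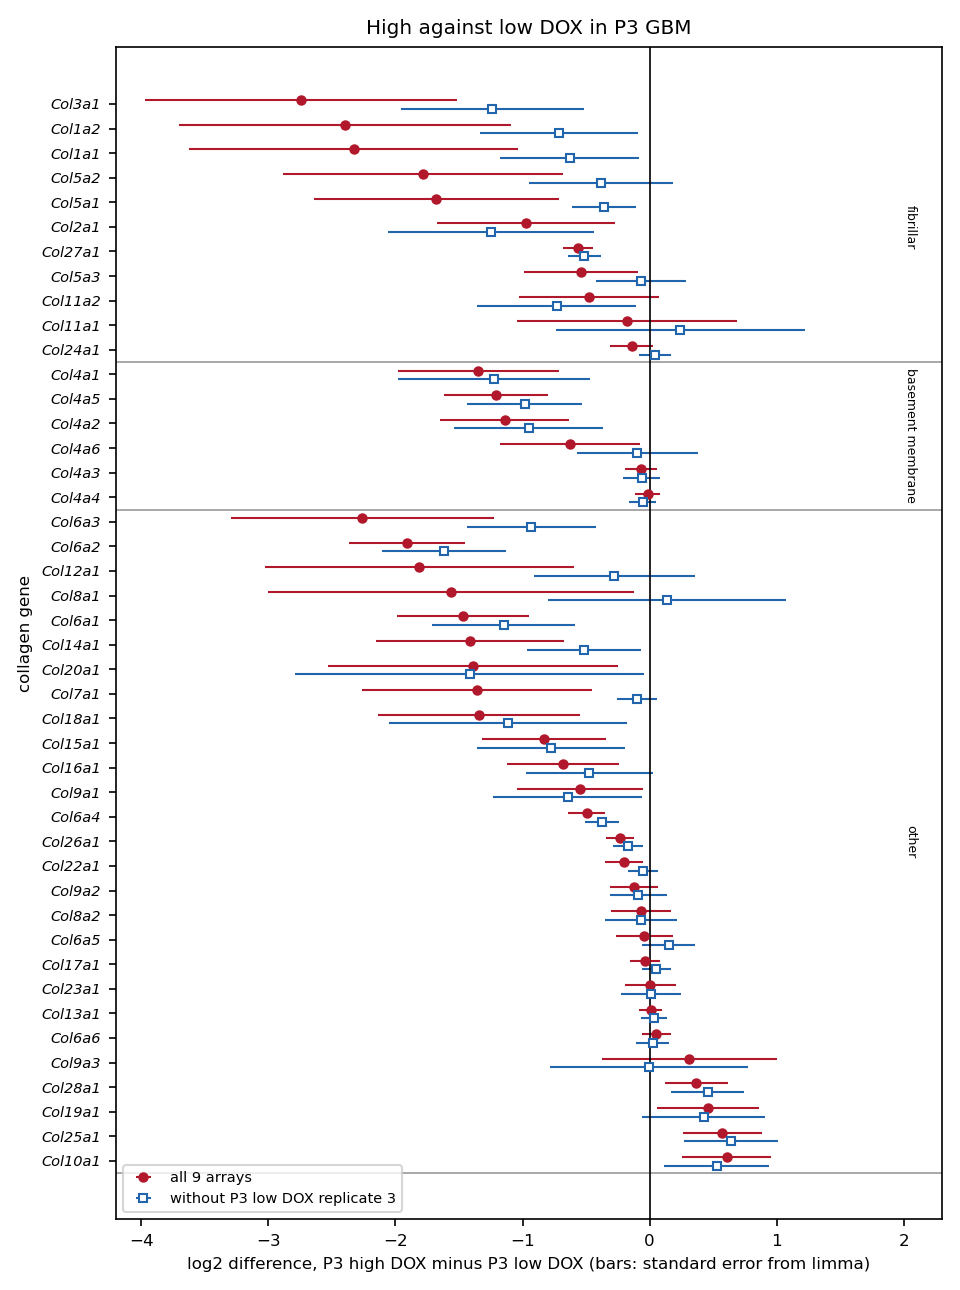
Points show the log2 difference of P3 high DOX minus P3 low DOX for each collagen with its limma standard error, filled circles for all 9 arrays and open squares without P3 low DOX replicate 3. The fibrillar median is -0.97 with all arrays and -0.51 without that array.

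Among the fibrillar chains, type I and type III collagen, which make up most connective tissue fibrils, had 1 far value in the same tumor. Col1a1 read 6.02, 6.41 and 7.58 in P3 high DOX, 7.53, 7.07 and 12.40 in P3 low DOX and 5.89, 6.88 and 7.18 in OPC lesions. The value in P3 low DOX replicate 3 was 4.82 log2 units above the next array, while the other 8 arrays lay between 5.89 and 7.58. The difference of high from low DOX was -2.33 ± 1.30 (SE, adjusted p = 0.574 by limma) and -0.63 ± 0.55 without that tumor. The transgene sits in this locus in P3 mice, at both doses. By the labels, though not by the paper's description, the mice with OPC lesions carried it too.

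Col1a2, the partner chain of type I collagen on another chromosome, followed the same pattern, with 5.19, 5.85 and 7.02 in P3 high DOX, 6.96, 6.51 and 11.78 in P3 low DOX and 5.19, 6.72 and 6.29 in OPC lesions. Its second probe set, which was not used for the tests, read 9.16 in P3 low DOX replicate 3 and 2.9996 to 3.41 on the other arrays. Both probe sets of Col1a2 thus placed the same tumor far above the rest. The high minus low difference of Col1a2 was -2.40 ± 1.31 (SE) and -0.72 ± 0.62 without that tumor.

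Col3a1, the single chain of type III collagen, read 5.22, 4.92 and 7.34 in P3 high DOX, 6.79, 7.34 and 11.58 in P3 low DOX and 5.87, 6.72 and 6.74 in OPC lesions. It had the largest fibrillar difference between the doses, -2.74 ± 1.23 (SE, adjusted p = 0.504 by limma), and -1.24 ± 0.72 without P3 low DOX replicate 3. All 3 low DOX tumors were above all 3 OPC lesions, but P3 high DOX replicate 3 overlapped the low DOX tumors. Its neighbour Col5a2, a type V chain that controls fibril diameter, read 4.77, 4.66 and 5.83 in P3 high DOX, 5.35, 5.58 and 9.66 in P3 low DOX and 4.78, 6.58 and 5.35 in OPC lesions. Col5a2 differed by -1.78 ± 1.10 (SE) between the doses and by -0.38 ± 0.57 without the same tumor. The partner chain Col5a1, named after its values were seen, read 10.46 in that tumor and 6.01 to 6.75 elsewhere. Its second probe set, not used for the tests, did not show this far value, with 4.79 in that tumor and 4.33 to 4.84 elsewhere.

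Col27a1 had the smallest SD among the low DOX tumors of any fibrillar collagen (0.11). This minor fibrillar chain, known from cartilage, read 6.48, 6.37 and 6.60 in P3 high DOX, 6.92, 7.06 and 7.15 in P3 low DOX and 6.26, 6.43 and 6.48 in OPC lesions. Every low DOX tumor was above every other array, by a small amount. The high minus low difference was -0.57 ± 0.12 (SE), or 1.48-fold lower, with an unadjusted limma p of 0.0014 and an adjusted p of 0.376, and -0.51 without P3 low DOX replicate 3. Against OPC lesions it was 0.65 higher in P3 low DOX (adjusted p = 0.321 by limma). Col27a1 was singled out after its values were seen.

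Col2a1 and Col11a1, chains of cartilage fibrils, had other leading arrays. Col2a1, the type II chain, read 6.05, 5.63 and 6.22 in P3 high DOX, 5.72, 8.71 and 6.38 in P3 low DOX and 5.65, 6.34 and 5.29 in OPC lesions, so that P3 low DOX replicate 2 led the next array by 2.33. Col11a1, a type XI chain named after its values were seen, read 8.43, 7.08 and 9.41 in P3 high DOX, 7.21, 8.92 and 9.33 in P3 low DOX and 7.66, 10.28 and 9.27 in OPC lesions. Its highest value was in an OPC lesion, and the spread within each group was wider than any difference between groups. Col24a1 stayed between 4.82 and 5.42 on all arrays.

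**Figure D3:**
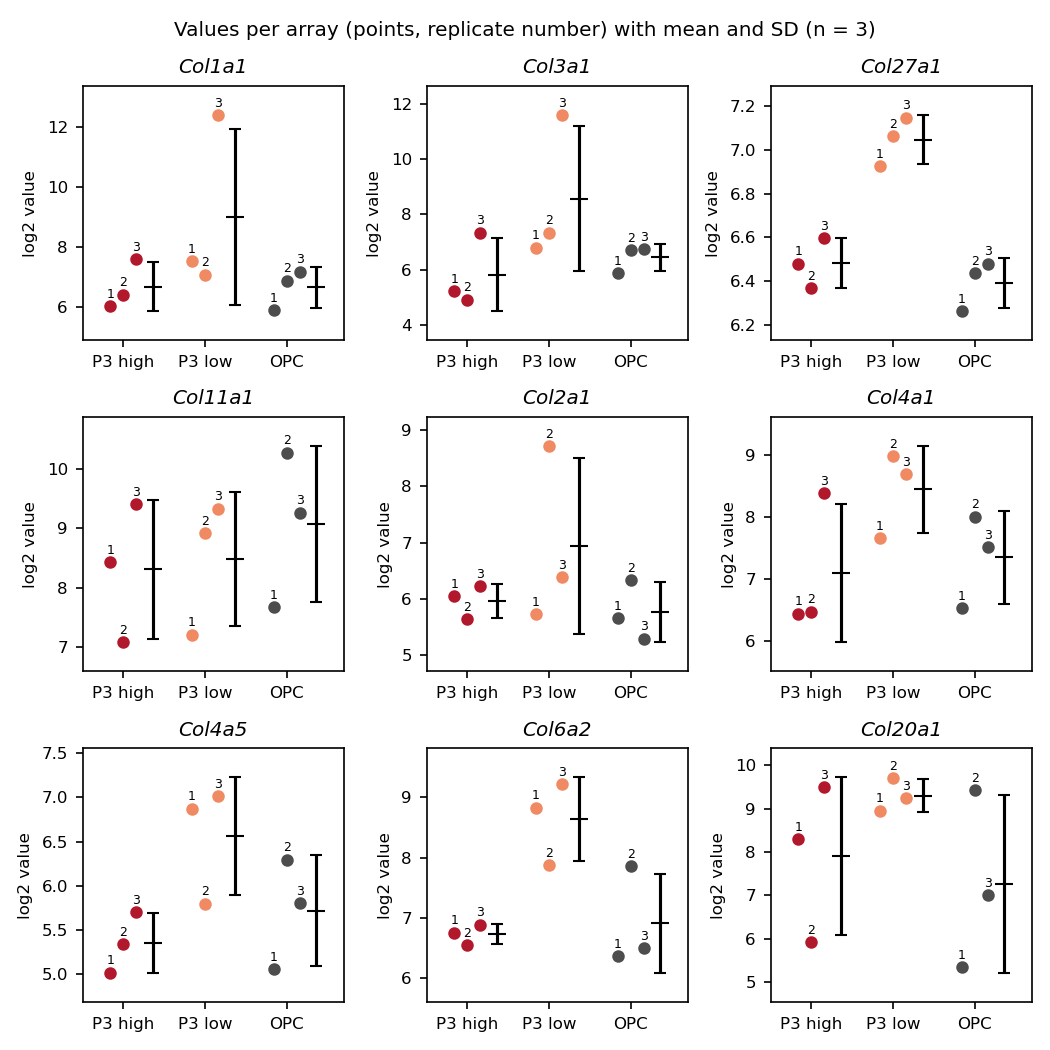
Points are the log2 values of 9 collagens on each array (number: replicate) in P3 high DOX, P3 low DOX and OPC lesions, and bars are the mean and SD of 3 arrays, each panel with its own scale. Col1a1 and Col3a1 each have 1 far point, P3 low DOX replicate 3, and for Col27a1 the 3 low DOX tumors lie above the other arrays.

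Of the basement membrane chains, Col4a1, Col4a2 and Col4a5 kept most of their difference between the doses without P3 low DOX replicate 3, and Col4a6 did not. Col4a1, which with Col4a2 forms the common type IV network of vessels, read 6.43, 6.47 and 8.39 in P3 high DOX, 7.66, 8.98 and 8.69 in P3 low DOX and 6.52, 8.003 and 7.52 in OPC lesions. Col4a2 read 6.23, 6.66 and 7.95 in P3 high DOX, 7.38, 8.42 and 8.47 in P3 low DOX and 6.55, 7.58 and 7.28 in OPC lesions. For both, P3 high DOX replicates 1 and 2 were below all low DOX tumors, and replicate 3 was among them. The difference of the doses was -1.35 ± 0.63 for Col4a1 (SE, adjusted p = 0.520 by limma) and -1.14 ± 0.51 for Col4a2 (adjusted p = 0.500). Without P3 low DOX replicate 3 it was -1.22 ± 0.75 for Col4a1 and -0.95 ± 0.59 for Col4a2.

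Col4a5 and Col4a6, a neighbouring pair on the X chromosome, are the chains of a more specialised network. Col4a5 read 5.02, 5.34 and 5.70 in P3 high DOX, 6.87, 5.80 and 7.01 in P3 low DOX and 5.06, 6.30 and 5.81 in OPC lesions. Its doses did not overlap, with a difference of -1.21 ± 0.41 (SE, adjusted p = 0.429 by limma) and -0.98 ± 0.45 without P3 low DOX replicate 3. Col4a6 read 4.29, 4.33 and 4.11 in P3 high DOX, 4.34, 4.34 and 5.94 in P3 low DOX and 3.99, 5.76 and 4.35 in OPC lesions. It was not above background in P3 high DOX, and only P3 low DOX replicate 3 and OPC lesion replicate 2 carried a clear signal. The dose difference of Col4a6 was -0.63 ± 0.55 (SE), and -0.10 without P3 low DOX replicate 3. Col4a3 and Col4a4, the chains known from the kidney filter, stayed between 3.84 and 4.67. The mural cell list, whose cells share the vessel basement membrane with endothelium, averaged 6.44 to 7.09 in P3 high DOX, 6.99 to 7.63 in P3 low DOX and 6.64 to 6.96 in OPC lesions. Its members parted in P3 low DOX replicate 3. Acta2 (11.14), Tagln (9.50) and Pdgfrb (10.10) had their highest value of all arrays there. Rgs5 (7.63), Abcc9 (6.24), Kcnj8 (5.39) and Higd1b (3.84) had their lowest there. The endothelial list averaged 6.53 to 7.14 in P3 high DOX, 6.83 to 7.81 in P3 low DOX and 6.91 to 7.23 in OPC lesions. The part of these cells in the type IV differences was not tested.

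Within the other collagens, 3 beaded filament chains of type VI (Col6a1, Col6a2 and Col6a4) were among the 5 with an unadjusted p under 0.05 between the doses. Col6a2 read 6.76, 6.55 and 6.89 in P3 high DOX, 8.83, 7.88 and 9.22 in P3 low DOX and 6.37, 7.86 and 6.51 in OPC lesions. The difference of the doses was -1.91 ± 0.46 (SE), 3.75-fold lower at high DOX, with an unadjusted limma p of 0.0032 and an adjusted p of 0.376. Leaving out P3 low DOX replicate 3 gave -1.62 ± 0.49. Every low DOX tumor was above every high DOX tumor and every OPC lesion, although low DOX replicate 2 and OPC lesion replicate 2 were nearly level. Col6a1, its neighbour and trimer partner, named after its values were seen, read 8.10, 7.68 and 8.12 in P3 high DOX, 9.89, 8.34 and 10.08 in P3 low DOX and 8.16, 9.16 and 7.68 in OPC lesions. Its difference was -1.47 ± 0.52 (SE, adjusted p = 0.434 by limma) and -1.15 ± 0.56 without P3 low DOX replicate 3. A second probe set of Col6a1, not used for the tests, read 6.57 in that tumor and 3.70 to 4.97 elsewhere.

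Col6a3, the long chain of type VI collagen, read 5.14, 4.67 and 6.17 in P3 high DOX, 5.86, 6.66 and 10.24 in P3 low DOX and 4.72, 5.74 and 5.30 in OPC lesions. Its difference of -2.26 ± 1.04 (SE, adjusted p = 0.516 by limma) was -0.93 ± 0.51 without that tumor, so that more of it rested on that tumor than for Col6a1 or Col6a2. Of the alternative chains, Col6a4 was at or near background in every group (3.995 to 4.16 in P3 high DOX, 4.44 to 4.80 in P3 low DOX and 4.16 to 4.50 in OPC lesions), Col6a5 was below it and Col6a6 stayed between 4.91 and 5.22.

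Several FACIT and network collagens had 1 far value. Col12a1, a FACIT of tendon and other dense tissue, read 4.54, 5.16 and 5.96 in P3 high DOX, 5.88, 5.12 and 10.10 in P3 low DOX and 4.78, 6.71 and 5.94 in OPC lesions. Col8a1, a short-chain collagen of vessel walls, read 4.80, 6.62 and 6.33 in P3 high DOX, 5.54, 6.03 and 10.88 in P3 low DOX and 5.31, 8.25 and 5.77 in OPC lesions. The dose difference was -1.81 ± 1.21 for Col12a1 and -1.56 ± 1.44 for Col8a1 (SE), and -0.28 and 0.13 without P3 low DOX replicate 3, a change of sign for Col8a1. Col7a1, the anchoring fibril collagen, named after its values were seen, read 9.08 in that tumor and 5.02 to 5.47 elsewhere.

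Other FACIT chains showed a different order of the arrays. Col20a1 read 8.29, 5.93 and 9.49 in P3 high DOX, 8.95, 9.69 and 9.24 in P3 low DOX and 5.36, 9.43 and 7.002 in OPC lesions, a range of 4.34 log2 units with the lowest values in P3 high DOX replicate 2 and OPC lesion replicate 1. On these 2 arrays the neuron list was highest (10.72 in the high DOX tumor and 10.65 in the OPC lesion) and the OPC list lowest (9.09 and 9.004 in the same order). The part of tissue makeup in this order was not tested. Col9a3, a type IX chain, read 7.52, 6.68 and 8.78 in P3 high DOX, 7.02, 8.31 and 6.71 in P3 low DOX and 5.52, 7.40 and 6.51 in OPC lesions, and was lowest in the same OPC lesion. Col9a3 was 0.31 ± 0.68 (SE) higher at high than at low DOX, and -0.0041 without P3 low DOX replicate 3. The 4 membrane-spanning collagens had a median dose difference of 0.0065, and the multiplexins Col15a1 and Col18a1 differed by -0.83 and -1.34 (adjusted p = 0.588 and 0.593 by limma).

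P3 GBM as a whole was compared with OPC lesions to set tumors against proliferating precursors, with both doses averaged. The collagens were higher in P3 GBM in 33 of 44 cases, against 48.8% of all genes, with a median difference of 0.29 against -0.0053. The doses differed in this. At low DOX 38 of 44 were higher (49.4% of all genes), and at high DOX 19 of 44 (48.2% of all genes). With both doses averaged, the median was 0.48 for fibrillar collagens (10 of 11 above 0), 0.18 for basement membrane collagens (5 of 6) and 0.20 for the others (18 of 27). None passed limma's adjusted test and nor did any other gene (0%). At an unadjusted p under 0.05, 1 collagen was higher (Col27a1, 0.37 ± 0.10) against 1.71% of all genes and 1 was lower (Col19a1, -0.85 ± 0.35) against 2.14% (SE). The methods' t-test gave 0 collagens at that level and 0 after adjustment, and in 0 collagens were the groups apart, against 1.05% higher and 0.784% lower of all genes. Col19a1, a FACIT, read 5.34, 5.06 and 4.43 in P3 high DOX, 4.40, 4.63 and 4.42 in P3 low DOX and 5.97, 4.61 and 6.10 in OPC lesions. OPC lesion replicate 2 lay among the tumors, while the other OPC lesions were above all 6 of them.

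Without P3 low DOX replicate 3 the median over collagens was 0.11 (28 above 0), with 0.13 for fibrillar, 0.13 for basement membrane and 0.04 for the other collagens. The largest differences carried wide errors: 1.19 ± 1.12 for Col1a1, 1.15 ± 1.13 for Col1a2, 1.20 ± 0.90 for Col6a3, 1.34 ± 0.99 for Col20a1 and 1.03 ± 0.59 for Col9a3 (SE). Leaving out P3 low DOX replicate 3 gave 0.34 for Col1a1, 0.31 for Col1a2, 0.54 for Col6a3, 1.35 for Col20a1 and 1.18 for Col9a3. The smallest adjusted p of any collagen was 0.974 in this comparison.

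The doses were further compared 1 at a time with the OPC lesions, in comparisons that share the OPC lesion arrays. In P3 low DOX the collagens were higher in 38 of 44 cases, against 49.4% of all genes, with medians of 1.18 for fibrillar, 0.51 for basement membrane and 0.27 for the other collagens. The fibrillar median was 0.60 without P3 low DOX replicate 3, and the median of all collagens was 0.64 with it and 0.16 without it. None passed limma's adjusted test (0% of all genes). At an unadjusted p under 0.05, 2 were higher (Col27a1 and Col6a2) against 4.4% of all genes and 1 was lower (Col19a1) against 5.41%, and the methods' t-test gave 2. The groups did not overlap for 4 higher collagens (Col3a1, Col6a2, Col6a3 and Col27a1) against 6.34%, and for 0 lower ones against 7.92%. The difference was 1.73 ± 0.46 for Col6a2 and 2.33 ± 1.04 for Col6a3 (SE), and 1.44 and 1.01 without P3 low DOX replicate 3. For Col3a1 it was 2.13 ± 1.23 with that tumor and 0.62 ± 0.72 without it.

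In P3 high DOX, where the labelled diet was that of the OPC lesions, the collagens lay near the OPC lesion level. The median difference was -0.05 over the 44, with 25 below 0 against 51.8% of all genes, and 0.02 for fibrillar, -0.22 for basement membrane and -0.05 for the other collagens. None passed limma's adjusted test (0% of all genes), and 0 did at an unadjusted p under 0.05, against 0.897% of all genes higher and 0.726% lower, or by the methods' t-test. For 0 collagens were the groups apart, against 3.34% higher and 3.02% lower of all genes. With 3 arrays a group these values do not show that the levels were the same.

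Collagen chains need enzymes for hydroxylation and folding, proteases and oxidases for trimming and crosslinking outside the cell, and receptors that bind or take up collagen. Of the 19 measured genes for modification and folding, 14 had a difference below 0 at high against low DOX, with a median of -0.43, and of the 12 for processing and crosslinking 9 did, with a median of -0.78. All 9 receptor and uptake genes were below 0, with a median of -0.76. The microglia markers averaged 6.82 to 7.88 in P3 high DOX and 8.17 to 9.47 in P3 low DOX (median difference -1.37, 6 of 7 below 0, 5 at an unadjusted p under 0.05). The myelinating oligodendrocyte markers averaged 7.006 to 8.05 in P3 high DOX and 8.40 to 11.22 in P3 low DOX (median -2.08, 7 of 7 below 0, 4 at that level). All 7 of each list were above background in every group, and their part in the receptor values was not tested. No gene of the partner lists passed limma's adjusted test, and at an unadjusted p under 0.05 there were 2 lower in each partner list and 1 higher in the processing list, against 4.89% and 5.25% of all genes. Without P3 low DOX replicate 3 the medians were -0.15 for modification, -0.17 for processing and -0.69 for receptors (-1.51 for microglia and -2.34 for myelinating oligodendrocyte markers). That tumor held the highest value of 8 of the 19 modification, 7 of the 12 processing and 4 of the 9 receptor genes, against 13.7% of all genes.

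Loxl1, an oxidase that crosslinks elastin and collagen, read 4.66, 5.77 and 5.43 in P3 high DOX, 5.90, 4.98 and 10.20 in P3 low DOX and 5.32, 6.62 and 5.74 in OPC lesions, and Lox, its relative, read 9.86 in the same tumor. Both thus shared the far value of type I collagen. P4ha3, a prolyl hydroxylase subunit, read 6.52, 7.67 and 6.38 in P3 high DOX, 9.63, 8.10 and 7.41 in P3 low DOX and 6.39, 7.88 and 6.68 in OPC lesions, with its top value in P3 low DOX replicate 1. Adamts3, a procollagen N-proteinase that also processes VEGF-C, ran the other way, with 6.91, 6.26 and 6.57 in P3 high DOX, 4.89, 5.02 and 4.78 in P3 low DOX and 6.48, 5.29 and 7.49 in OPC lesions. All low DOX tumors were below all other arrays, and the dose difference was 1.68 ± 0.48 (SE, adjusted p = 0.399 by limma). The remaining named partners differed between the doses by -1.32 for Plod2 and -1.03 for Serpinh1 (a lysyl hydroxylase and the collagen chaperone HSP47), -1.28 for Pcolce (an enhancer of procollagen C-proteinase), and -1.39, -1.38 and -1.29 for the receptors Lair1, Mrc2 and Itga2. The difference without P3 low DOX replicate 3 was -0.66 for Plod2, -0.13 for Serpinh1, -0.25 for Pcolce, -0.39 for Mrc2 and -0.15 for Loxl1, while it was -1.57 for Lair1, -1.47 for Itga2, -2.01 for P4ha3 and 1.63 for Adamts3. In P3 GBM against OPC lesions the partner lists had medians of 0.25 for modification (13 of 19 above 0), 0.10 for processing (9 of 12) and 0.24 for receptors (6 of 9). The named genes there were P4ha3 (0.64), P3h3 (0.47), P3h1 (0.47), Lox (1.33), Adamts3 (-0.68), Sparc (0.53), Itga11 (0.52), Itga2 (-0.43) and Mrc2 (0.34), none of which passed the adjusted test. With P3 low DOX replicate 3 left out, the difference was 0.58 for Lox, 0.21 for P3h1, 0.28 for Itga11 and -0.15 for Mrc2, a change of sign, and that of Itga2 changed sign without OPC lesion replicate 2 or 3 (0.050 and 0.062).

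The fibroblast and meningeal list and the monocyte-derived macrophage list had their highest means on P3 low DOX replicate 3, where most collagens were also highest. The 12 fibroblast and meningeal markers averaged 5.26, 6.04 and 5.45 in P3 high DOX, 6.14, 5.52 and 7.14 in P3 low DOX and 5.22, 5.20 and 5.53 in OPC lesions. Of the 12, 8 had their highest value in P3 low DOX replicate 3, against 13.7% of all genes. In this list 11 markers were above background in P3 high DOX, 11 in P3 low DOX and 9 in OPC lesions. The 7 monocyte-derived macrophage markers averaged 4.62 to 4.70 in P3 high DOX, 5.66 to 7.001 in P3 low DOX and 4.49 to 5.59 in OPC lesions, with 5, 7 and 6 above background. Of these 7, 3 had their highest value in P3 low DOX replicate 3, against 13.7% of all genes, and the others had it elsewhere. The part of these cells in the collagen values of that tumor was not tested.

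**Figure D4:**
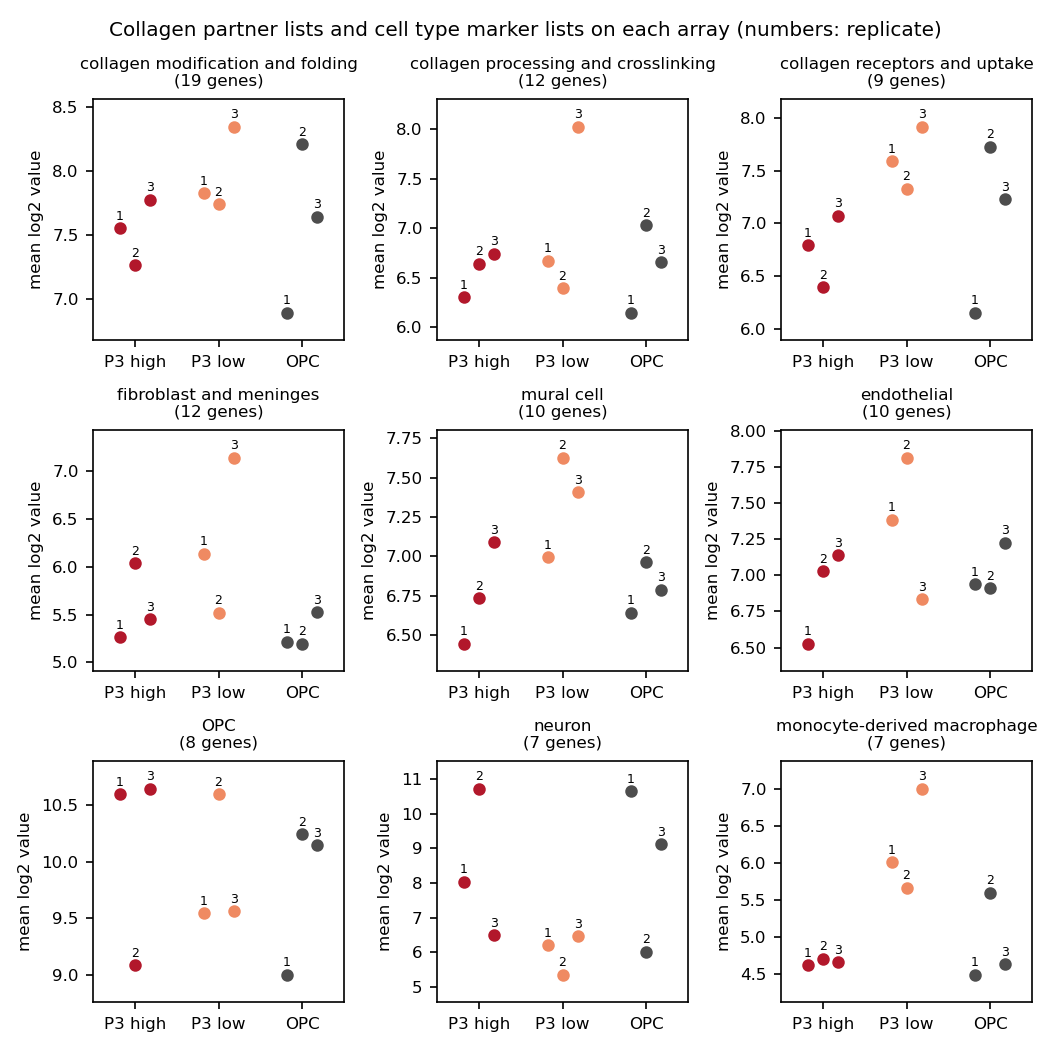
Points are the mean log2 value of each gene list on each array (number: replicate) in P3 high DOX, P3 low DOX and OPC lesions, each panel with its own scale. The processing list and the fibroblast and meninges list have their highest point, 8.02 and 7.14, in P3 low DOX replicate 3.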

How the data were processed

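RNA of 9 tissue samples was hybridised to Affymetrix MoGene-2_0-st arrays. The authors applied robust multichip averaging (RMA) and deposited log2 values, with versions not given in the sources used here. An SVA step is named after it in the methods, and whether the deposited values include that step is not known. Of 41345 probe sets, 23521 name 1 gene, 1820 name several and 16004 are unnamed here, and only the first kind was used. Where a gene had several, that of the highest 9-array mean stood for it, giving 22180 genes, 44 of them collagens (47 probe sets), all matched to RefSeq by identifier and symbol. Levels of different probe sets were not set against each other.

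Genes were tested with limma 3.58.1 in R 4.3.3 over all 9 arrays, with Benjamini-Hochberg adjustment over all genes and a threshold of 0.05, in 4 comparisons, without a further filter. The fit was tested on simulated data. Alternatives were centring, a filter on the lowest 25% of genes, averaging each gene's probe sets, a variance trend, only the groups compared, a replicate block, the t-test named in the methods, and each array left out. Leaving out P3 low DOX replicate 3 and P3 high DOX replicate 2 together was added after the values were seen. Collagens named in full are the 4 of each class with the largest difference of P3 GBM from OPC lesion and of high from low DOX, and Col1a1. For partner lists they are the 3 largest. Members and lists were chosen with earlier results of these data known. Promoter sequences are from RefSeq (GRCm38.p6). Figures were drawn with Python 3.11.15 and matplotlib 3.10.9.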

Additional observations from a re-analysis of the deposited data

How the results depend on the processing

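No collagen passed the adjusted test under any alternative run in the 4 comparisons, and the class medians not listed here stayed within the spread between arrays. With each array centred on its median, the medians of all genes were -0.13 (P3 GBM against OPC lesion), -0.18 (P3 low DOX against OPC lesion), -0.07 (P3 high DOX against OPC lesion) and 0.11 (between the doses), the median of the other collagens in P3 low DOX against OPC lesion was 0.085 in place of 0.27, and 1 collagen had an unadjusted p under 0.05 in P3 high DOX against OPC lesion. Arrays of the same replicate number correlated between -0.48 and 0.27 in their deviations from the group means, and arrays of different number between -0.72 and 0.67. Deviations from means of 3 arrays depend on one another, so these values cannot settle whether the numbers pair the samples. With the replicate number as a block, the collagens at an unadjusted p under 0.05 were 1 in P3 GBM against OPC lesion, 7 in P3 low DOX against OPC lesion, 0 in P3 high DOX against OPC lesion and 9 between the doses, in place of 2, 3, 0 and 5. The methods' t-test gave 0 in P3 GBM against OPC lesion. The fit to only the groups compared was not run for P3 GBM against OPC lesion, which uses all arrays.

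With single arrays left out, these counts ranged between 1 and 5 (P3 GBM against OPC lesion), 2 and 9 (P3 low DOX against OPC lesion), 0 and 1 (P3 high DOX against OPC lesion) and 3 and 11 (between the doses). The count in P3 GBM against OPC lesion was 5 without OPC lesion replicate 2 and 1 without OPC lesion replicate 1 or 3, P3 low DOX replicate 3 or P3 high DOX replicate 2 or 3. That in P3 low DOX against OPC lesion was 9 and 8 without P3 low DOX replicates 1 and 2, 7 without OPC lesion replicate 2, and 5 without P3 high DOX replicate 3. That between the doses was 9, 10 and 3 without P3 low DOX replicates 1, 2 and 3, and 11 without P3 high DOX replicate 3. The median of the other collagens ranged from 0.036 (without P3 low DOX replicate 3) to 0.36 in P3 GBM against OPC lesion and from 0.12 to 0.47 (without P3 low DOX replicate 1) in P3 low DOX against OPC lesion. The fibrillar median ranged from 0.60 (without P3 low DOX replicate 3) to 1.78 (without P3 low DOX replicate 1) in P3 low DOX against OPC lesion and from -1.58 to -0.51 (without the same arrays in the other order) between the doses. With P3 low DOX replicate 3 and P3 high DOX replicate 2 both left out, the counts were 1 in P3 GBM against OPC lesion and 3 between the doses, the median of the other collagens in P3 GBM against OPC lesion was 0.036 and the fibrillar median in P3 low DOX against OPC lesion was 0.60.

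With single arrays left out, the difference changed sign for 15 of the 44 collagens in P3 GBM against OPC lesion, 14 in P3 low DOX against OPC lesion, 26 in P3 high DOX against OPC lesion and 13 between the doses. The ranges that follow are for such collagens and partners named by the rule in P3 GBM against OPC lesion and between the doses. In P3 GBM against OPC lesion, Col12a1 ranged from -0.46 to 0.79 over single arrays left out, Col4a5 from -0.094 to 0.53, Col4a6 from -0.50 to 0.39, Col5a2 from -0.30 to 0.91, Col8a1 from -0.59 to 1.16, Itga2 from -1.39 to 0.062 and Mrc2 from -0.15 to 0.87. Between the doses, Col8a1 ranged from -2.53 to 0.13 and Col9a3 from -0.25 to 0.80. The sign turned without P3 low DOX replicate 3 for Col12a1, Col5a2, Col8a1 and Mrc2 (and between the doses for Col8a1 and Col9a3), without OPC lesion replicate 1 for Col12a1, Col4a5 and Col8a1, without OPC lesion replicate 2 for Col4a6 and Itga2, without OPC lesion replicate 3 for Col8a1 and Itga2, and without P3 high DOX replicate 3 for Col9a3. With both named arrays left out, it was -0.44 for Col12a1, -0.19 for Col5a2, -0.77 for Col8a1 and -0.17 for Mrc2. The cause was not tested.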
